A study of Mus musculus with 5 samples.

Results

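H3K27me3 was compared with whole cell extract along the autosomes of mouse embryonic fibroblasts, in windows wide enough to show domains rather than peaks. The H3K27me3 library was set against the second extract library (WCE replicate 2) in 50 kb bins of chromosomes 1 to 19 that held at least 50 reads of that extract. Of 49259 autosomal bins, 44432 (90.2%) qualified, and they covered 2222 Mb. A bin's ratio is its H3K27me3 reads over its WCE replicate 2 reads, with each library scaled to its autosomal total, and every qualifying bin was used.

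The cells carried doxycycline-inducible Klf4, Sox2 and Oct4 together with a selectable cassette at Oct4. Per the labels, induced pluripotent cells derived in medium with Wnt3a were placed in BDF2 blastocysts, and fibroblasts were taken from the chimeras at 13.5 dpc. Puromycin at 2 µg/ml for 48 hours selected cells descended from the injected ones, and the growth protocol names no addition of doxycycline. All 5 libraries of the series share these cells: H3K27me3 (antibody AB6002), RNA Pol II (8WG16), E2F4, and WCE replicates 1 and 2, which had no antibody. The labels do not say how many embryos or cultures stand behind a library, and the labelled cell type was not checked against marker genes because no gene annotation of the files' build (mm8) was used.

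H3K27me3 is the trimethylated form of lysine 27 on histone H3, written by Polycomb repressive complex 2. In differentiated cells it is known to cover silent developmental genes in domains that can run over many neighbouring genes, and it is generally low over transcribed genes. RNA Pol II transcribes protein-coding genes, and E2F4 is a transcription factor of the cell cycle that binds mostly at promoters. Whole cell extract is sonicated chromatin sequenced without selection, and it carries its own unevenness from shearing, amplification and mapping.

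The H3K27me3 library had 9483163 distinct autosomal reads and WCE replicate 2 had 11226593. The median bin held 159 H3K27me3 reads and 218 WCE replicate 2 reads, and from the 5th to the 95th percentile the extract count ran from 60.5 to 556. Both libraries were sequenced in the same run and aligned with a seed length of 36 bases, per the file headers. RNA Pol II (3111606 distinct autosomal reads), E2F4 (1971874) and the shallow WCE replicate 1 (417799) came from another run. There is 1 H3K27me3 library, so no value below has a replicate spread. Intervals are exact (Clopper-Pearson, 95%) and cover counting error only: the libraries were amplified and carry no molecular identifiers, so reads are not independent molecules. The differences between bins and between chromosomes are differences within these libraries, and no p-value is given.

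Most of the autosomal genome lay below parity with extract, and a long upper tail rose from it. The median ratio was 0.78, the quartiles were 0.641 and 1.04, and 27.6% of bins exceeded 1. The 5th percentile was 0.517 and the 95th was 2.14, while the lowest bin stood at 0.233 and the highest at 9.38. The upper tail is wider than the lower one. On the log2 scale the ratio had an SD of 0.63 over bins, against 0.18 that counting error alone would give on average.

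A bin was called raised at a ratio of at least 1.5 and lowered at 1/1.5 (0.667) or less. Raised bins numbered 4977, 11.2% of the 44432, and lowered bins numbered 13341, 30.0%. At stricter folds, 2598 bins (5.85%) had a ratio of at least 2 and 1543 (3.47%) had 0.5 or less. The interval lay above 1 in all 4977 raised bins and below 1 in 13083 of the lowered ones. For raised bins the rule fixes this outcome. With the minimum of extract reads required of a bin, a ratio of at least 1.5 already places the interval above 1. The count of 4977 is therefore no separate support for the raised calls. The thresholds cut a continuous distribution: the raised bin nearest to the threshold had 1.5001 and the nearest one outside had 1.4995. Within 5% of the lower threshold lay 5762 bins, and 1094 bins lay within 5% of the upper one. The lowered bin nearest to its threshold had 0.66666 and the nearest one outside had 0.66668.

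The balance of the classes depended on how the libraries were scaled. Scaling by totals assigns the reads gathered in raised bins to the same budget as all others, and setting the median bin to 1 instead shifted every ratio by 0.36 on the log2 scale. Raised bins then numbered 8686 (19.5%) and lowered bins 2322 (5.23%). The order of the bins is the same under both scalings. Against the median bin, the raised threshold corresponds to 1.92 and the lowered one to 0.855. A lowered bin is thus a bin low by totals, and its distance from the median bin can be small.

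**Figure D1:**
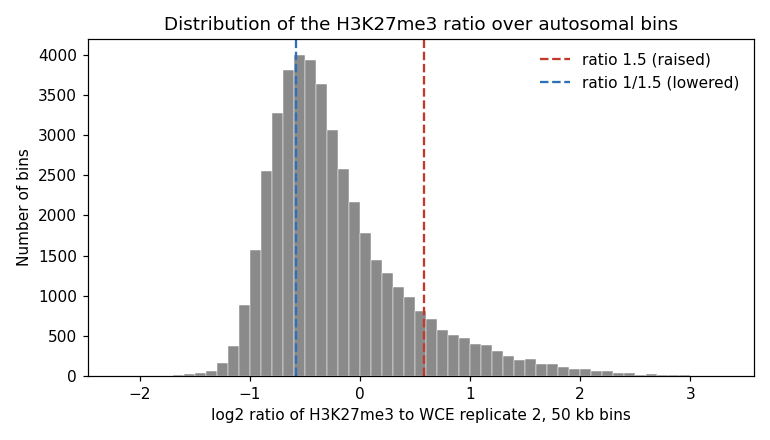
Number of 50 kb autosomal bins (y axis) by log2 ratio of H3K27me3 to WCE replicate 2 (x axis), with dashed lines at the raised (1.5) and lowered (1/1.5) thresholds. The bulk of bins lies left of 0, around the median ratio of 0.78, and a tail runs right past the raised threshold, where 4977 bins lie.

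The 2 strands of each library gave separate counts of the same bins. Across the 44432 bins, the log2 ratios from plus-strand and minus-strand reads correlated at r = 0.852, where both strands share the fragments' origin, the library and the mappability of the bin. Of the raised bins, 4351 (87.4%) were raised on each strand alone. Of the lowered bins, 8619 (64.6%) were lowered on each strand alone. The bins were called from the reads of both strands together, so these shares are not independent of the calls.

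By the rule, raised bins hold more H3K27me3 than extract, so the shares and H3K27me3 densities here only give the size of that excess. Raised bins held 31.5% of the autosomal H3K27me3 reads and 12.8% of those of WCE replicate 2. Their H3K27me3 density was 12.7 reads per kb per 10000000 autosomal reads of the library, against 3.71 in bins called neither way and 2.90 in lowered bins. WCE replicate 2 had densities of 5.16, 4.04 and 5.04 in the same order. This extract, the denominator of the ratio, was densest in the raised bins, while WCE replicate 1 was sparsest there, at 3.80 against 4.21 in uncalled and 4.61 in lowered bins. Since the sample is a bulk preparation, a mark on all cells at a low level cannot be told apart from a stronger mark on part of the cells.

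The 5 bins whose interval began highest lay on 5 chromosomes. The first, chr11:97350001-97400000 (mm8, as for all positions), held 3874 H3K27me3 reads against 489 WCE replicate 2 reads, a ratio of 9.38 (8.53 to 10.3). The second, chr10:42250001-42300000, had 3127 against 397 reads, a ratio of 9.32 (8.40 to 10.4). The third, chr14:121600001-121650000, had 2296 against 297 reads, a ratio of 9.15 (8.11 to 10.4). The intervals of these 3 bins overlap almost entirely. The ratio was 8.81 (7.95 to 9.79) at chr19:45250001-45300000 and 8.36 (7.57 to 9.25) at chr2:105450001-105500000. RNA Pol II reads numbered 15 to 24 in these 5 bins, a density of 0.964 to 1.54, which is near the median of 1.09 over all qualifying bins (quartiles 0.643 and 3.09, mean 4.48). None was an isolated bin, as they lay in raised runs of 2 to 5 bins.

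At the other end, the 5 bins whose interval ended lowest differed in their RNA Pol II reads. The bin chr19:5800001-5850000 held 364 H3K27me3 reads against 1106 extract reads, a ratio of 0.39 (0.345 to 0.439), and 5620 RNA Pol II reads, a density of 361. At chr10:79500001-79550000 the ratio was 0.395 (0.347 to 0.449), with 1053 RNA Pol II reads. RNA Pol II reads numbered 410 at chr8:75450001-75500000, where the ratio was 0.358 (0.296 to 0.431), and 302 at chr1:152150001-152200000, where it was 0.341 (0.266 to 0.434). These 4 bins had RNA Pol II densities of 19.4 or more. The fifth, chr1:116900001-116950000, held few reads of these libraries, with 12 H3K27me3, 61 WCE replicate 2, 3 RNA Pol II and 16 E2F4 reads, and its ratio was 0.233 (0.114 to 0.437).

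Adjacent bins resembled each other over short distances. Next to a raised bin, 49.8% of bins were raised, against 11.2% of all bins. At 100 kb the share was 34.2%, at 200 kb 23.4%, at 500 kb 18.3% and at 10000 kb 12.3%. The correlation of the log2 ratio between bins fell from r = 0.568 at 50 kb to 0.163 at 200 kb and 0.0653 at 1000 kb (41570 to 43019 pairs of bins, which share libraries and neighbouring sequence). The extract itself kept its level over much longer distances: log2 WCE replicate 2 counts correlated at 0.884, 0.751 and 0.457 over the same distances. Lowered bins also clustered, with 50.2% of bins next to a lowered bin lowered, against 30.0% of all, and 31.3% at 1000 kb. A bin directly beside a raised bin was lowered in 7.86% of cases, and at 300 kb in 28.6%, close to the share among all bins.

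Runs of adjacent raised bins were mostly short. The 4977 raised bins formed 2519 runs, of which 1390 were single bins, 798 had 2 to 3 bins and 331 had at least 4 bins (200 kb). Those 331 runs covered 86.9 Mb and 34.9% of the raised bins. They held 12.8% of the autosomal H3K27me3 reads against 4.71% of the extract reads, an excess that the rule requires of raised bins. The longest had 10 bins (500 kb), and 8 runs had that length. This limit depended on the grid: moving it by 25 kb left 331 runs of at least 200 kb but gave a longest raised run of 750 kb and a longest lowered run of 700 kb. The ratio was higher in longer runs: summed over runs it was 2.10 (2.09 to 2.11) for single bins, 2.45 (2.44 to 2.45) for 2 to 3 bins, 2.70 (2.69 to 2.71) for 4 to 9 bins and 2.94 (2.91 to 2.98) for 10 bins. Length and ratio come from the same reads, so this order is a description.

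Long raised runs were spaced unevenly. Between successive runs of at least 4 bins on a chromosome, the gap had a median of 2250 kb, with quartiles of 750 and 7212 kb, and the longest was 42950 kb. Only 5 of the 312 gaps were a single bin. Gaps of 1 qualifying bin that was not raised, uncalled or lowered, were then allowed, as often as they occurred in a run. With them, 454 runs reached 200 kb and the longest was 800 kb.

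**Figure D2:**
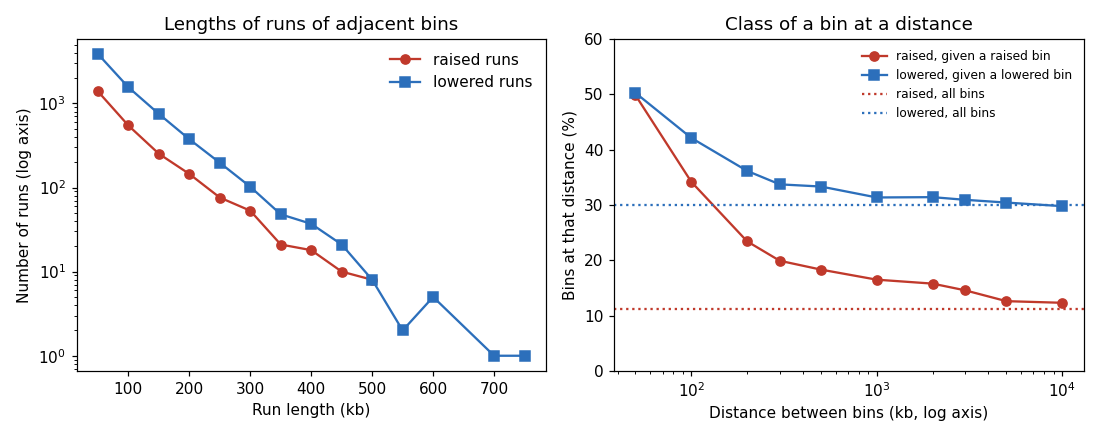
Left, number of runs (y axis, log) by run length in kb for raised and lowered bins; right, percent of bins that are raised or lowered at a given distance (x axis, log) from a bin of the same class, with dotted lines for all bins. On this grid raised runs end at 500 kb and lowered runs at 750 kb (750 and 700 kb with the grid moved by 25 kb), and both right-hand curves fall towards the share among all bins.

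The 8 longest raised runs, each 500 kb, differed in level and in what else they held. The run chr15:102500001-103000000 had the highest ratio, 3.79 (3.66 to 3.92). Its 10 bins in order stood at 2.50, 4.49, 4.53, 3.42, 6.89, 8.15, 3.01, 2.69, 2.60 and 1.77, so it peaked near its middle. The bin before it had 0.63 and the bin after it 1.20. RNA Pol II reads in the same 10 bins numbered 294, 122, 12, 13, 8, 32, 436, 349, 60 and 123. They were lowest in the third to sixth bins, at ratios of 4.53, 3.42, 6.89 and 8.15, and higher in the bins on either side. The second bin, with a ratio of 4.49, held 122.

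The run chr8:123550001-124050000 had a ratio of 3.40 (3.29 to 3.52) and the highest RNA Pol II density of the 8, 13.3. Of its 2072 RNA Pol II reads, 767 and 690 fell in the last 2 bins, where the H3K27me3 ratios were 4.54 and 2.48. The bin with the highest H3K27me3 ratio of this run was therefore also the one with the most RNA Pol II reads. At 50 kb, reads of both libraries in a bin need not lie on the same sequence.

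The run chr12:112500001-113000000 had 10 bins at 2.14, 4.11, 2.80, 2.91, 2.80, 2.85, 2.80, 2.85, 3.54 and 2.94 and a summed ratio of 3.06 (2.96 to 3.15). It held 19 to 40 RNA Pol II reads per bin, and the next bin on its right had 685, with a ratio of 0.63. The change from 2.94 to 0.63 took place between neighbouring bins.

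The run chr5:35350001-35850000, at 3.25 (3.14 to 3.37), stood at 1.65 in its first bin and 5.73 in its eighth. The run chr15:100450001-100950000 had 2.74 (2.63 to 2.85), with bins from 1.53 to 4.50. The summed ratio was 2.50 (2.38 to 2.63) in chr9:69300001-69800000 and 2.24 (2.15 to 2.33) in chr6:99600001-100100000. In each of these last 2 runs a single bin stood out, at 5.59 and 4.55, above neighbours of at most 2.70 and 2.62. The run chr6:125550001-126050000 had the lowest ratio and the narrowest range of bins of the 8, at 1.80 (1.72 to 1.89) with bins from 1.51 to 2.18 and an RNA Pol II density of 1.05.

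The ratio varied more between the bins of raised runs than between those of lowered runs. Within the 331 raised runs of at least 4 bins, the median SD of the log2 ratio between bins was 0.36, against 0.10 from counting error. Within the 797 lowered runs of that length it was 0.13, against 0.14 from counting error. The threshold bounds lowered bins from above, which limits their spread, so this comparison cannot show whether they vary beyond counting. Inner bins of raised runs had a median ratio of 2.42 and outer bins 2.11. Lowered runs had 0.574 inside and 0.585 at their outer bins. The highest bin was an inner one in 227 of the 331 raised runs (68.6%), where 61.9% of the bins were inner ones.

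The signal inside raised bins was examined in 10 pieces of 5 kb, in the 3223 raised bins where every piece had at least 10 WCE replicate 2 reads. The median raised bin had 7 pieces at or above 1.5, and 645 bins had all 10. At least 8 pieces were past the threshold in 48.6% of these bins, and 3 or fewer in 4.34%. In bins called neither way the median was 1 piece. The count rose with the level: 14.2% of bins with ratios from 1.5 to 2 had at least 8 raised pieces, 66.2% of those from 2 to 3, 84.4% of those from 3 to 5 and 91.6% of those of 5 or more. The pieces and the bins are made of the same reads, so a higher bin must have more or higher raised pieces.

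Isolated raised bins were more focal than those in long runs. In runs of 4 bins or more, 66.6% of the bins examined had at least 8 raised pieces and 1.47% had 3 or fewer. Among single raised bins these shares were 21.7% and 11.5%. The densest piece held 23.8% of the H3K27me3 reads in the median single bin and 17.2% in the median bin of a long run. For WCE replicate 2 the densest piece held 15.8% and 14.8%. The levels of single bins and of bins in long runs also differed, as given above. Over all raised bins examined, the median H3K27me3 share of the densest piece rose with the ratio. It was 17.4% at 1.5 to 2, 18.5% at 2 to 3, 23.9% at 3 to 5 and 24.6% at 5 or more. High bins thus had many raised pieces and also a dense one.

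Of the 13341 lowered bins, 4109 (30.8%) lay in 797 runs of at least 200 kb, and 3870 were single. On this grid 7 runs were 600 kb or longer. The longest, chr13:105100001-105850000, stood at 0.583 (0.553 to 0.614) with bins from 0.44 to 0.643 and an RNA Pol II density of 5.69. The next, chr2:29600001-30300000, stood at 0.547 (0.526 to 0.568). Its 14 bins lay between 0.499 and 0.638, while their RNA Pol II densities ran from 5.91 to 101, with a density of 33.9 over the run. The rule holds each ratio at 0.667 or less, while it sets no bound on RNA Pol II.

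The other 5 were 600 kb long and had RNA Pol II densities of 5.63 to 18.4. They were chr7:111800001-112400000 (0.527), chr5:124350001-124950000 (0.531), chr16:10850001-11450000 (0.59), chr15:72700001-73300000 (0.564) and chr15:7800001-8400000 (0.582), the last named because it ties with the others in length. With the median bin set to 1, 7 lowered runs of at least 200 kb were found, and the longest was 250 kb.

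The other libraries were not used to define the classes, and their mean densities were highest in lowered bins. RNA Pol II had a mean density of 7.47 (7.46 to 7.48) in lowered bins, 3.27 in bins called neither way and 2.84 (2.83 to 2.85) in raised bins. Lowered bins held 49.8% of the autosomal RNA Pol II reads and raised bins 7.07%. These means rest on a minority of bins, and the classes overlap: the median densities were 1.99, 0.964 and 1.16, the upper quartiles 8.55, 2.06 and 1.86, and the lower quartiles 0.578, 0.578 and 0.836. Raised bins thus had the lowest mean but not the lowest median. E2F4 had mean densities of 5.42, 3.99 and 4.17 and medians of 3.65, 3.14 and 3.65. WCE replicate 1 had 4.61, 4.21 and 3.80.

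By its mean, RNA Pol II varied mainly on the lower side across 10 classes of the ratio. Its mean density was 11.2 in bins under 0.5, 6.98 from 0.5 to 0.667, 3.78 from 0.667 to 0.8 and 2.96 from 0.8 to 1. From there up to the 149 bins at 5 or more it stayed between 2.43 and 3.08. The median over bins did not follow the mean at the lowest end, at 0.900 under 0.5 and 1.99 from 0.5 to 0.667. On the upper side the median rose, from 0.900 at ratios of 0.8 to 1 to 1.29 at 5 or more. WCE replicate 2 rose from 3.81 at ratios of 0.8 to 1 to 6.09 at 5 or more, although it is the denominator of the ratio.

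**Figure D3:**
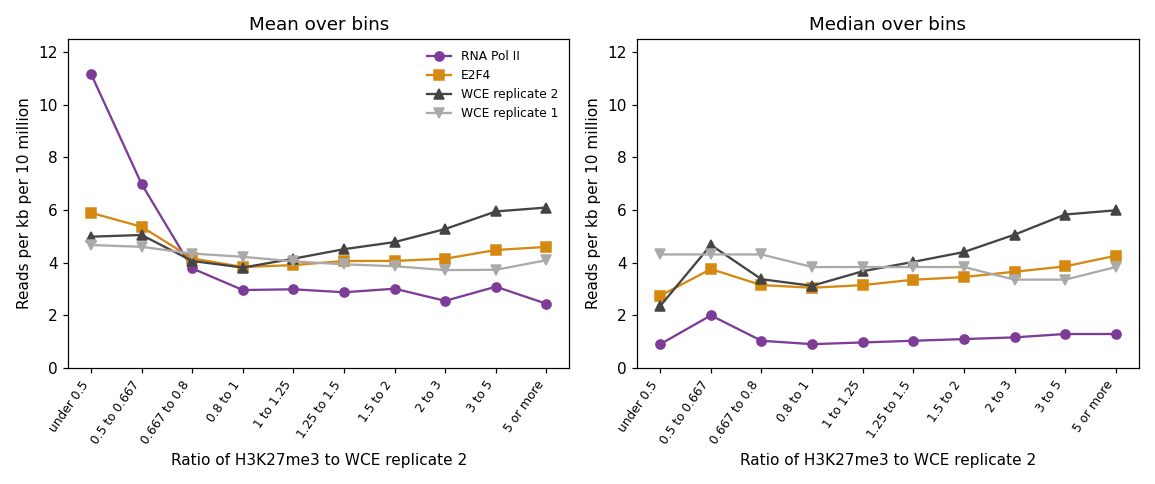
Read density of RNA Pol II, E2F4 and both extract libraries (y axis, reads per kb per 10000000 autosomal reads) in 10 classes of the H3K27me3 ratio (x axis), as the mean over bins (left) and the median over bins (right). The mean RNA Pol II density falls from 11.2 to 2.96 up to a ratio of 1 and is level above it, while its median stays at or below 1.99 in every class.

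Lowered bins were most frequent at both ends of the extract count. When the bins were divided into 5 nearly equal classes of WCE replicate 2 count, they made up 38.6% of the lowest class (50 to 95 reads) and 45.3% of the highest (385 reads or more). In the middle class they made up 18.9%. In the highest class RNA Pol II had a density of 17.6 in lowered bins, 10.9 in uncalled ones and 7.06 in raised ones. In the lowest class it was 0.475, 0.524 and 0.477, nearly the same for all. A high extract count lowers the ratio by construction, so the frequencies are a description, while the RNA Pol II reads come from another library.

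Raised bins were rare where WCE replicate 2 was sparse. They made up 1.64% of the lowest class, 8.01% of the second, 16.5% of the third, 17.7% of the fourth and 12.0% of the highest. The shallow WCE replicate 1 was not sparse in the lowest class. Its density there was 3.76 in raised, 4.34 in uncalled and 4.46 in lowered bins. In the highest class it was 3.49, 4.10 and 4.60. In each class from the second to the highest, raised bins had less RNA Pol II than lowered ones, by mean densities of 0.788 against 0.962, 1.33 against 3.61, 2.53 against 8.07 and 7.06 against 17.6.

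Lowered runs of at least 4 bins spanned the same range. RNA Pol II density was over 5 in 448 of the 797 (56.2%) and under 1 in 217 (27.2%). The first kind had a median WCE replicate 2 density of 7.75 and an E2F4 density of 7.16, and the second had 1.35 and 2.03. For WCE replicate 1 the medians were closer, 4.91 and 4.31. The median ratios of both kinds were almost equal, 0.569 and 0.571. Among the 331 raised runs, 48 had an RNA Pol II density over 5 (14.5%) and 79 under 1 (23.9%), with median H3K27me3 ratios of 2.67 and 2.33.

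RNA Pol II reads were fewer inside raised runs than just outside them. At the 659 sides of long raised runs with a qualifying bin beyond them, the first bin outside had a median of 76 RNA Pol II reads and the outermost bin inside had 21. RNA Pol II was higher outside at 488 sides (74.1%), and summed reads were 3.03 times higher outside. E2F4 reads were 1.56 times higher outside, and higher at 445 sides (67.5%). WCE replicate 2 was 1.23 times higher outside, at 486 sides (73.7%), but here the rule takes part because it is the denominator. WCE replicate 1, which is independent of the rule, was 1.08 times higher, at 330 sides (50.1%), with a median of 8 reads in either bin. The part of extract in the RNA Pol II difference was not tested.

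At steps of 5 kb the H3K27me3 ratio rose over about 60 kb at these borders. It was 0.786 (0.771 to 0.801) 45 to 50 kb outside, 1.33 (1.31 to 1.36) in the last piece outside, 1.69 (1.67 to 1.72) in the first piece inside and 3.02 in the piece 35 to 40 kb inside. From there to 150 kb inside it stayed between 2.84 and 3.10. Only longer runs reach beyond 100 kb (372 pieces at 120 to 125 kb inside), and the ratio was lower from 150 kb on. It was 2.56 at 150 to 155 kb inside (114 pieces) and 2.38 at 195 to 200 kb inside (72 pieces). The 50 kb grid fixes where an edge is placed, so the slope of the domains and the resolution of the grid cannot be told apart. Farther out, 195 to 200 kb from the edge, the ratio was 1.07 (1.05 to 1.09), and the bin just outside is below 1.5 by the rule, which sequence beyond it need not be. RNA Pol II was uneven outside, with densities from 6.72 at 160 to 165 kb to 13.7 at 45 to 50 kb. It was 10.04 in the last piece outside, 6.87 in the first inside and 2.15 in the piece 50 to 55 kb inside. At 195 to 200 kb outside it was 7.70, still above the 4.48 of all bins.

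**Figure D4:**
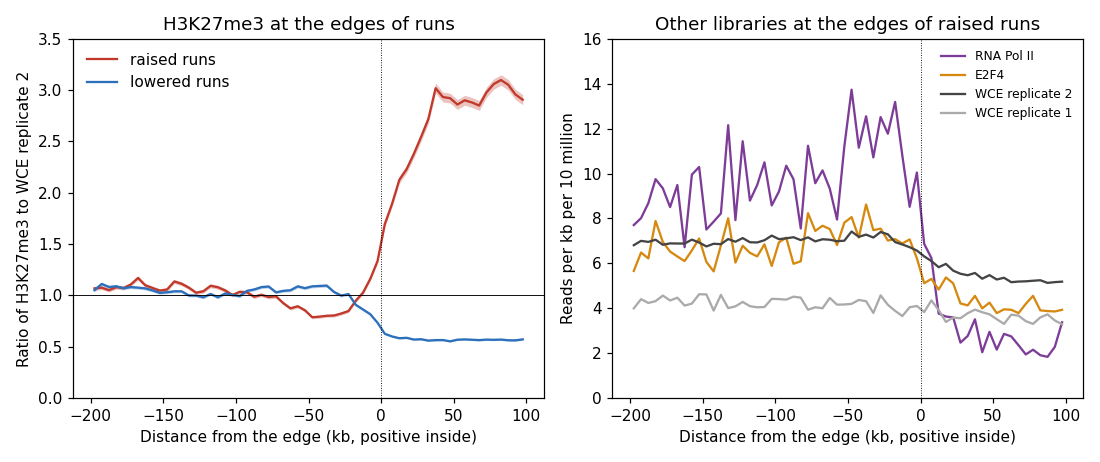
Left, summed ratio of H3K27me3 to WCE replicate 2 (y axis) in 5 kb pieces by distance from the edges of raised and lowered runs of at least 4 bins (x axis, kb, positive inside; shading is the 95% interval); right, read densities of the other libraries at the edges of raised runs. RNA Pol II lies unevenly between 6.72 and 13.7 outside. It is 2.15 at 50 to 55 kb inside, where the H3K27me3 ratio is about 3.

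The same count was made for shorter raised runs. RNA Pol II was higher in the neighbour at 1665 of 2717 sides (61.3%) of single raised bins, and at 1098 of 1572 (69.8%) for runs of 2 to 3 bins. Of the sides of long raised runs, 21.5% bordered directly on a lowered bin and 78.1% on an uncalled one. For lowered runs of at least 4 bins RNA Pol II was lower outside at most sides, with a median of 28 reads in the first bin outside and 55 in the outermost bin inside.

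Chromosomes differed little in their typical bin and more in their upper tail. Median bin ratios ran from 0.75 on chromosome 16 to 0.83 on chromosome 19, and differences between chromosomes made up 0.487% of the variance of the log2 ratio. The summed ratio was highest on chromosomes 19 (1.09, 1.08 to 1.09), 2 (1.07, 1.06 to 1.07) and 11 (1.07, 1.06 to 1.07). It was lowest on chromosomes 16 (0.881, 0.877 to 0.885), 3 (0.915, 0.911 to 0.918) and 10 (0.929, 0.925 to 0.933). The order depended on the extract: chromosomes 11 and 3 were at the ends with WCE replicate 1 as denominator (1.37 and 0.774) and with none (1.36 and 0.749). The counting intervals of the high and low chromosomes are far apart, but the quartiles of their bins overlap, from 0.657 to 1.15 on chromosome 19 and from 0.638 to 0.943 on chromosome 16.

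Raised bins made up 14.9% of chromosome 11, 14.5% of chromosome 19 and 13.9% of chromosome 7, against 6.88% of chromosome 16 and 7.57% of chromosome 3. Chromosome 2 had the most raised runs of at least 4 bins, 36, and chromosome 16 had 8. Lowered bins varied less in proportion, from 26.9% of chromosome 19 to 34.7% of chromosome 5. Chromosomes with more protein-coding genes per Mb (gene counts from assembly GRCm38.p6, lengths from the mm8 bins) had a larger share of raised bins, at r = 0.766 and rho = 0.777 over 19 chromosomes. The same share correlated with WCE replicate 2 density at r = 0.534 and with RNA Pol II density at 0.655. For lowered bins the correlation with gene density was 0.165. Chromosomes of 1 library share its depth and base composition, and these values are descriptions.

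**Figure D5:**
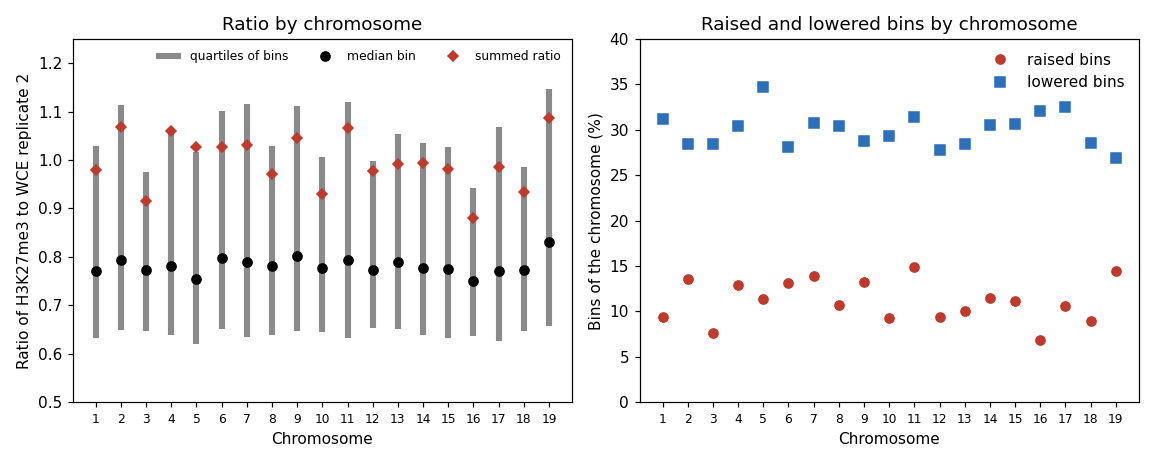
Left, ratio of H3K27me3 to WCE replicate 2 by chromosome, with the quartiles of bins (bars), the median bin (circles) and the summed ratio (diamonds); right, percent of each chromosome's bins that are raised or lowered. Median bins stay between 0.75 and 0.83, while raised shares run from 6.88% on chromosome 16 to 14.9% on chromosome 11.

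The share of raised bins also varied along the chromosomes. When the span of qualifying bins of each chromosome was cut into 10 equal parts from its start, 8.49% of bins were raised in part 1 and 14.0% in part 10. The shares between did not rise steadily, with 9.82% in part 6 and 10.2% in part 8. Over the 10 parts the median ratio ran from 0.753 to 0.815, and the share of lowered bins from 25.8% in part 4 to 33.5% in part 6. In parts 1 and 10, WCE replicate 2 density was 3.80 and 5.59, and RNA Pol II density 3.84 and 5.81. Their part in the difference was not tested.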

How the data were processed

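Each deposited file lists signed positions of reads (other unit), which the authors placed on mm8 with bowtie (-e 70, -k 2, -m 2, -n 2; -l 36 for H3K27me3 and WCE replicate 2, -l 26 for the others), per the file headers, which give no version. Positions were taken as left ends, with read lengths from -l. Reads of the first section (1 placement) were kept once per position and strand, 5′ ends were moved 60 bp downstream and counted in 50 kb bins with Python 3.11.15, NumPy 2.4.6 and SciPy 1.17.1. Repeats removed made up 10.7% of H3K27me3 and 7.10% of WCE replicate 2 reads. With 1 library a side, calls are folds, and no test was run. Bins with fewer than 50 extract reads (4827, with 61807 H3K27me3 reads) were left out. The counting was tested on simulated data. Named regions are the 8 longest raised and 6 longest lowered runs (ties by reads; a seventh of equal length is named beside them), 5 bins at each end by interval limit, and 3 chromosomes at each end. The members, thresholds and classes were chosen with earlier results of these data known. The comparisons of run sides, extract-count classes, position and runs by RNA Pol II level were outside the planned design. No unmapped sample column was present (0). Alternatives covered the shift, repeats, extract minimum, scaling, bin size, grid, extract library, strand, reads at 2 places, fold and gaps.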

Additional observations from a re-analysis of the deposited data

Results flagged for a closer look

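Reads listed at 2 places, which the comparison left out, carried the same pattern. In raised bins their H3K27me3 ratio to WCE replicate 2, scaled by the totals of that section on the autosomes, was 1.84 (105736 H3K27me3 lines), above the extract level of 1. In bins called neither way it was 0.942, in lowered bins 0.772 and in bins with a ratio of 5 or more 4.32. Each of these reads is listed at more than 1 place, and which of its places it came from is not known.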

How the results depend on the processing

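The main values were a median ratio of 0.78, 4977 raised and 13341 lowered bins, 331 raised and 797 lowered runs of at least 200 kb, longest runs of 500 and 750 kb, and chromosome ratios up to 1.09 and down to 0.881. With the median bin set to 1 (median 1), there were 8686 raised and 2322 lowered bins, 672 and 7 runs, longest runs of 850 and 250 kb, and chromosomes from 1.13 to 1.39. With no extract as denominator, the median was 0.75, raised bins 7494, runs 638 and 1374, longest runs 1700 and 3450 kb, and chromosomes 0.749 to 1.36. Without WCE replicate 2, on the shallow WCE replicate 1, the median was 0.793, raised bins 11670, runs 863 and 1411, longest runs 1950 and 3050 kb, and chromosomes 0.774 to 1.37, with chromosomes 11 and 3 at the ends. Both extracts summed gave a median of 0.762 and a highest chromosome of 1.09. At a fold of 2 there were 2598 and 1543 bins, 133 and 0 runs, and a longest lowered run of 150 kb. At the lower of the other folds tried there were 7536 and 23579 bins, 580 and 2257 runs, and longest runs of 800 and 1650 kb. In 20 kb bins, 13296 and 36637 were called, with 161 and 153 runs. In 100 kb bins, 2393 and 5862 were called, with 562 and 1374 runs, a longest raised run of 800 kb and a median of 0.789. Bridging gaps of 1 bin gave 1444 lowered runs and longest runs of 800 and 1150 kb. At 100 extract reads or more, the median was 0.803 and chromosomes ran from 0.889 to 1.1. The median was 0.774 with repeats kept, 0.789 on the plus and 0.789 on the minus strand, and the highest chromosome had 1.08 with reads at 2 places added. The cause of these differences was not tested. Bin sizes and folds change what is counted by construction. No paired analysis was possible because each antibody has 1 library, so the groups share fewer than 2 replicate numbers. Moving the grid by 25 kb gave longest runs of 750 and 700 kb. WCE replicate 1 is shallow, at 417799 distinct autosomal reads, which limits the ratios set against it.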

Other observations

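Chromosome X was outside the comparison. Of its 3311 bins, 1275 held at least 50 WCE replicate 2 reads, and their summed ratio, scaled by the autosomal totals, was 0.883 (0.876 to 0.89). Their median bin had 0.761, and 9.65% were raised.

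In 3 autosomal bins WCE replicate 2 exceeded 2000 reads, and every library was denser there than over all qualifying bins. The bin chr11:3050001-3100000 held 9253 extract and 7235 H3K27me3 reads, with a ratio of 0.926 (0.897 to 0.955), and the bin before it stood at 0.76 (0.721 to 0.8). At chr17:39450001-39500000 there were 5565 extract and 6301 H3K27me3 reads, and the ratio was 1.34 (1.29 to 1.39). None of the 3 was called, although their H3K27me3 densities ran from 51.0 to 153, where the bin with the highest ratio had 81.7.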
